A study of Homo sapiens with 24 samples.

Results

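Gene expression in MV4-11 cells given ABT-869 and SAHA together for 24 hours was compared with that in MV4-11 cells given DMSO, the solvent control. The comparison takes every array titled as the combination (3) or as the control (3) of this line, which is 6 of the 24 arrays of the series. MV4-11 is an acute monocytic leukemia line (subtype M5) in which every FLT3 allele carries an internal tandem duplication (ITD), and all cultures come from this single line. The triplicates were biological according to the paper. ABT-869 is an inhibitor of FLT3 and of other receptor tyrosine kinases, and SAHA (vorinostat) is an inhibitor of histone deacetylases. ABT-869 was used at 3 nM and SAHA at 6 µM as single drugs, and the doses inside the combination are not restated in the sources used here. The other arrays used here are 3 of MV4-11 with ABT-869 alone, 3 with SAHA alone, and those of MOLM-14 under the same 4 treatments. MOLM-14 is a second leukemia line with FLT3-ITD, and it keeps a wild-type FLT3 allele. The question of the comparison is which transcripts differ when both drugs are present.

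FLT3 is a receptor tyrosine kinase of early blood cells, and the ITD lets it signal without its ligand through STAT5, the RAS-ERK cascade and PI3K-AKT. Histone deacetylase inhibitors raise the acetylation of histones and of many other proteins, and are known in leukemia cells for changing both silent and active genes and for slowing growth. The gene groups followed below include known outputs of several regulators: CISH, SOCS and PIM genes of STAT5, amino acid and stress genes of ATF4, sterol genes of SREBP, and the late cell cycle genes of the MYB-MuvB and FOXM1 regulators.

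Each culture gave 1 Affymetrix U133 Plus 2.0 array, and the values are linear signals with 1 value per probe set, a group of short probes for 1 transcript. The signal has no absolute unit, so levels are compared between arrays for the same probe set and not between genes. Every array has a trimmed mean of 500.06 to 500.07, the median signal of the 6 arrays was 78.5 to 98.7, and 27% to 31% of their probe sets lay at or below 32, the value to which lower signals were raised before log2 was taken (the floor). The GAPDH ratio of 3' to 5' probe sets, a measure of RNA integrity, was 0.981 to 0.997. The same ratio for ACTB was 1.214 to 1.278 on the DMSO arrays and 1.162 to 1.375 on the combination arrays. Deviations from the group mean had an SD of 0.248 to 0.253 (log2) on the DMSO arrays and of 0.282 to 0.314 on the combination arrays. Combination replicate 3 had the highest of these SDs and the highest ACTB ratio, and replicate 2 had the lowest median signal, so counts are given without each of them.

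The labelled cell type was checked against its markers. PTPRC (CD45), FLT3, SPI1, LYZ and MEIS1 were bright in both groups, and MEIS1, for example, gave 1983, 1936 and 1692 with DMSO and 1376, 1230 and 1391 with the combination. CSF1R was at 538, 531 and 429 on the DMSO arrays and 722, 673 and 751 on the combination arrays. ANPEP (CD13), another marker fixed for the line, was at or near the floor on all 6 arrays, and CD33, CD68 and HOXA9 were not analysed here. Of 16 markers of T, B, red, epithelial and connective tissue cells, 14 were measured. None passed the test in either direction (1 was lower without SAHA replicate 2, with only the 6 arrays compared or with all 24 arrays). COL1A1, for example, was at 537, 477 and 422 on the DMSO arrays and 237, 482 and 397 on the combination arrays.

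The combination changed 1816 of 54613 probe sets by at least 2-fold at an adjusted p under 0.05, with 929 higher and 887 lower. These are 1.7% and 1.62% of all probe sets tested, and they name 608 and 603 genes. At any size, 4125 probe sets were higher and 3364 lower. Large changes were more often falls: 56 probe sets rose and 99 fell by at least 4-fold, and 3 rose and 11 fell by at least 8-fold. The median signal of the probe sets that rose went from 142.6 with DMSO to 356.9 with both drugs, and that of the probe sets that fell went from 535.6 to 201.7. Over all probe sets tested the median DMSO signal was 86.9, and a 2-fold fall can be seen only well above the floor. Of the 929 rises, 47 were at the floor on all DMSO arrays, and of the 887 falls, 53 were at the floor on all combination arrays. The DMSO and combination arrays did not overlap for 928 of the 929 rises and 886 of the 887 falls. Among all 54613 probe sets this held for 14286. Separate groups, where mentioned below, therefore describe a called gene and add no support to its call. The median change over all probe sets was 0. When each array was centred on its own median, the split was 1084 higher and 772 lower. Without combination replicate 2 there were 1984 such probe sets and without replicate 3 there were 1678. Total RNA of a culture was measured, so fewer cells of a kind and less RNA per cell cannot be told apart here or in any result below.

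**Figure D1:**
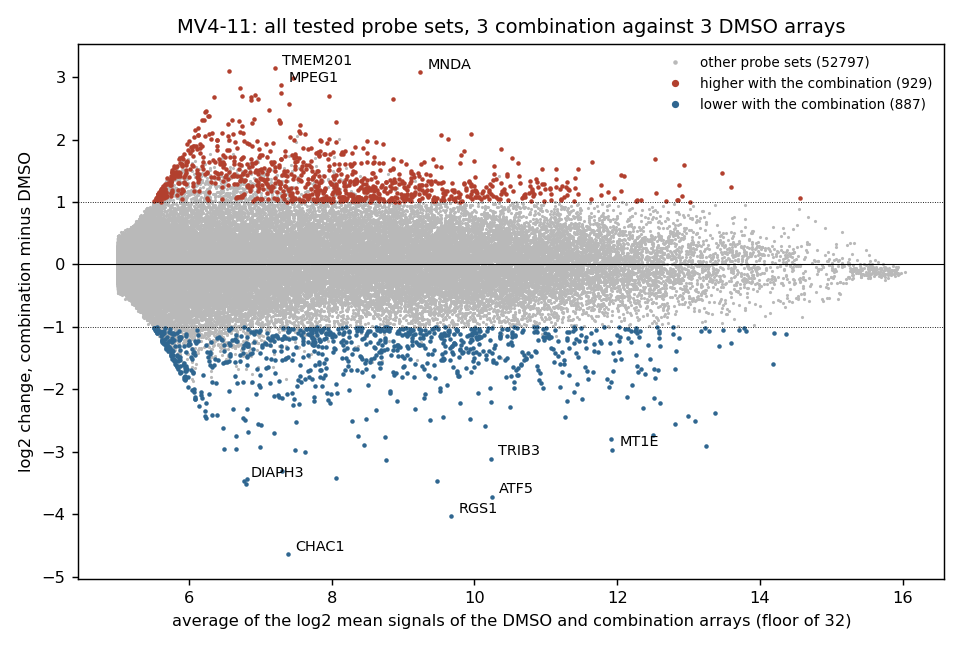
Each point is a probe set, with its mean log2 signal over the DMSO and combination arrays on the horizontal axis and its log2 change (combination minus DMSO) on the vertical axis. The 929 probe sets that rose at least 2-fold at an adjusted p under 0.05 are red, the 887 that fell are blue and reach further from 0, and all others are grey.

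Among the probe sets with the 12 largest rises and the 12 largest falls, the falls were led by CHAC1, RGS1, ATF5, INHBE, DIAPH3, ITPKA and RASD1 and the rises by TMEM201, ADAM28, MNDA, LAMP1 (a dim probe set of the gene) and MPEG1. CHAC1, a glutathione-degrading enzyme induced by ATF4, fell furthest, by 25.0-fold on the floored scale with 2 of its 3 combination arrays at the floor. The largest rise was that of TMEM201, an inner nuclear membrane protein, from 61.4, 45.6 and 42.1 to 479, 403 and 419, which is 8.82-fold. TPSAB1, a mast cell tryptase, was at the floor on all 3 combination arrays and fell at least 7.76-fold. To describe the response by function, 57 gene lists with 841 measured genes were followed, with the brightest probe set of each gene. A member counts as higher or lower at an adjusted p under 0.05 over all 54613 probe sets, whatever its size. In the same terms, 11.4% of all 19775 measured genes were higher and 9.24% were lower, with a median change of 0. Of the 841 listed genes, 127 were higher and 293 lower. The lists were chosen with earlier results known, and their counts describe them and test nothing.

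**Figure D2:**
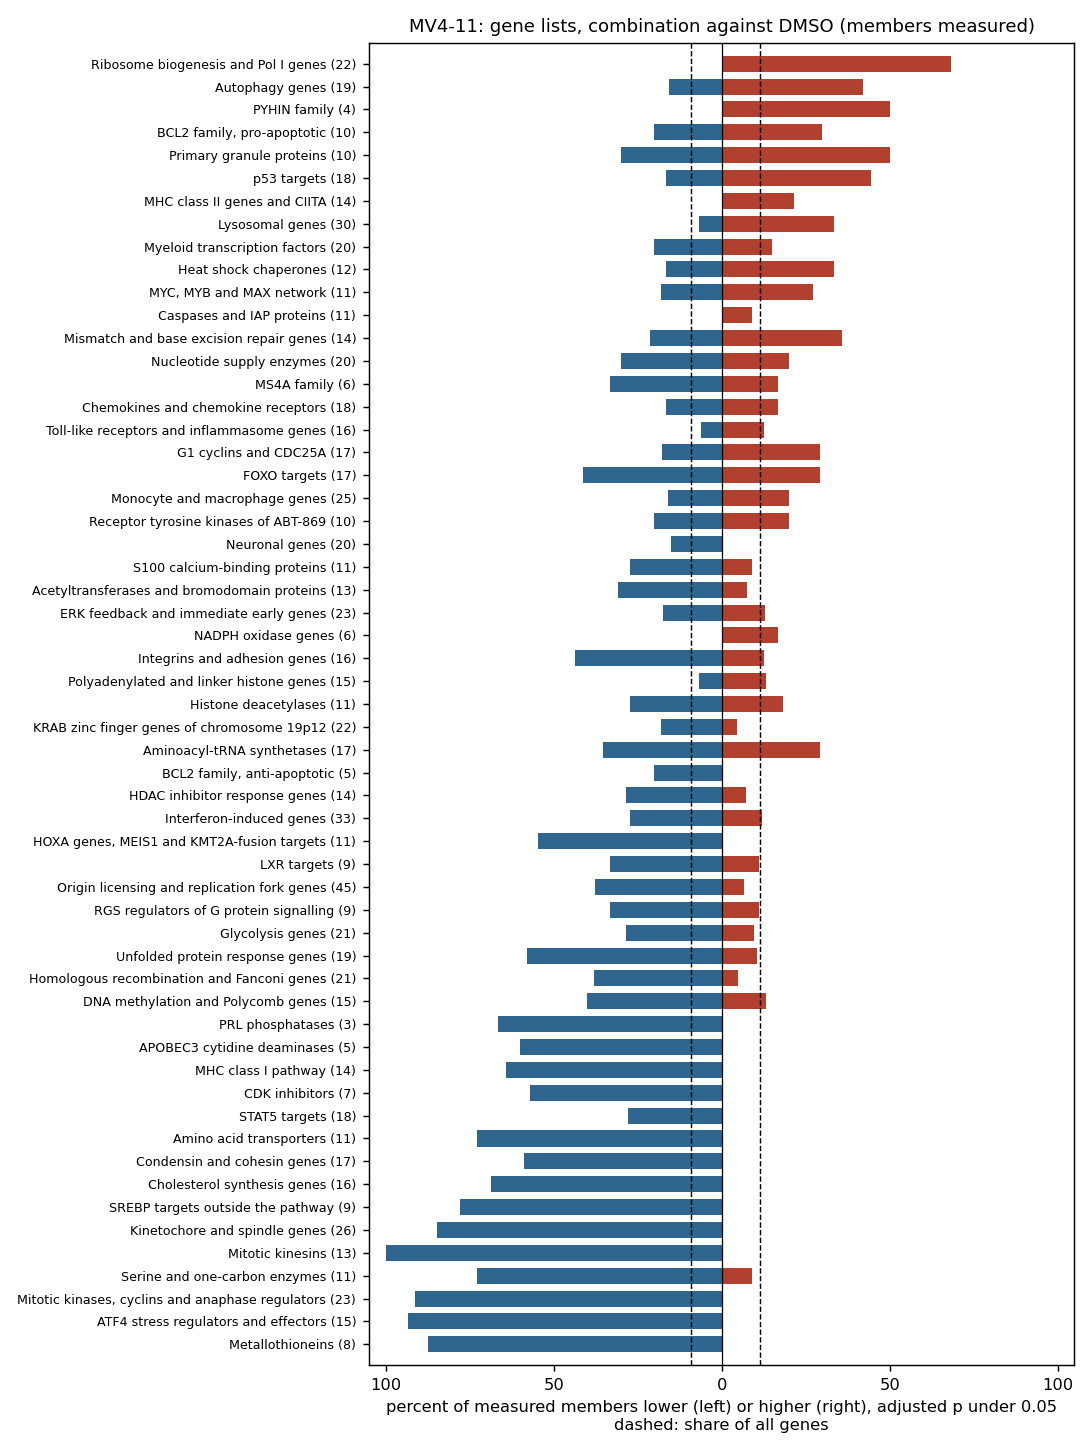
For each of 57 gene lists, the bar to the left gives the percent of measured members that were lower with the combination and the bar to the right the percent that were higher (adjusted p under 0.05). The dashed lines mark the same shares over 19775 genes, 9.24% lower and 11.4% higher, and the lists at the far left are the mitotic kinesins (13 of 13 lower), the ATF4 genes (14 of 15) and the mitotic kinases (21 of 23), while the ribosome biogenesis genes (15 of 22 higher) reach furthest right.

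Metallothioneins are small cysteine-rich proteins that bind zinc and copper, and the zinc-sensing factor MTF1 switches their genes on through short metal response elements. Of 8 measured metallothioneins, 7 fell and none rose, with a median log2 change of -2.33. The signal of MT1X was 21413, 20776 and 20328 on the DMSO arrays and 3609, 3448 and 3919.8 on the combination arrays. MT2A gave 25770.3, 22637 and 23401 with DMSO and 3905, 4336 and 5775 with the combination. In both genes the groups lay far apart, and the log2 changes were -2.51 ± 0.16 (SE) for MT1X (adjusted p = 2.48e-06) and -2.38 ± 0.17 (SE) for MT2A (adjusted p = 6.67e-06). Among the brightest probe sets of the 8 genes MT1H fell most, from 15139.7, 14008 and 15675 to 2078, 1995 and 2729, a log2 change of -2.73. MT1M fell from 122, 57.3 and 109 to below the floor on all 3 combination arrays, a fall of at least 2.86-fold. MT3, the brain-type member, had signals of 130, 194 and 108 with DMSO and 27.5, 112 and 122 with both drugs, which overlap (log2 change -0.88, adjusted p = 0.343). Metallothionein genes are near-identical copies, and 6 of the 8 probe sets carry the mark of probes that can match several transcripts, so the members are not separate measurements.

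The family was also followed with each drug alone. The median log2 change of the 8 genes was -1.70 with ABT-869, -1.57 with SAHA and -2.33 with both, in comparisons that share the DMSO arrays. Against ABT-869 alone 5 of the 8 were lower with the combination, where 6% of all genes were, and against SAHA alone 6 of 8 were, where 3.59% of all genes were. In MOLM-14 the median change was close to 0, and for 7 of the 8 the change differed between the lines in the direction of the larger fall in MV4-11, against 7.18% of all genes. For MT1X the difference between the lines was -2.55 ± 0.19 (SE) on the log2 scale (adjusted p = 7.76e-08).

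Promoters of these genes are shown because the letters of a metal response element can be read in them. The windows run from 250 bases before to 50 after the start in RefSeq (build GRCh38.p14), and capitals mark every TGCACNC or TGCGCNC on either strand. MT1X lies at chr16:56682220-56682519 on the plus strand and has 4 matches, and MT2A at chr16:56608334-56608633 on the plus strand has 8.
MT1X: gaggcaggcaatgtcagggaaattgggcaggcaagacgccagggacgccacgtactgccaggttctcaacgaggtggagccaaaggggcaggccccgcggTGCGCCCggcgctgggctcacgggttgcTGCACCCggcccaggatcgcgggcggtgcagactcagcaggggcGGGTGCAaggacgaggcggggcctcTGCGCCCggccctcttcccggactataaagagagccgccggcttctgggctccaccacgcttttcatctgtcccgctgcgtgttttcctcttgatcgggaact
MT2A: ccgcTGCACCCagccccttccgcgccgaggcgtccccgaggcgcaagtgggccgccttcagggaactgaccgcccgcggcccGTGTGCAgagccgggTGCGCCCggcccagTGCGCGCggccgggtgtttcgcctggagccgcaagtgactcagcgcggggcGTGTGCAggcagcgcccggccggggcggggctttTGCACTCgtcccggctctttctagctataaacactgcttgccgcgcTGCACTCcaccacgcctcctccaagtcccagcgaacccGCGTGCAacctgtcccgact
Promoter entries were at hand for 3 of the 8 genes, and each of the 3 held the letters. Of 35116 single promoter entries, 29.6% hold them. Here and below a gene counts if any of its entries matches, so shares of genes and of entries are unlike measures. A match is a run of letters and not a measured site.

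ATF4 is the factor through which amino acid shortage, heme shortage and unfolded protein stress raise genes for amino acid supply and for stress signalling. Of 15 ATF4 regulators and effectors 14 fell and none rose, with a median log2 change of -1.56. ATF5, a relative of ATF4 whose translation responds to the same stress, had signals of 5831, 3641 and 3832 with DMSO and 325, 283 and 388 with the combination. TRIB3, a pseudokinase that binds AKT, went from 10385, 9692 and 10382 to 1288, 1481 and 1617. DDIT3 (CHOP), a stress factor tied to cell death, went from 2772, 2584 and 2987 to 437, 423 and 539. None of these 3 genes had overlapping groups, and their log2 changes were -3.72 ± 0.18 (SE), -2.80 ± 0.10 (SE) and -2.58 ± 0.12 (SE). ASNS, which makes asparagine, fell from 5490.2, 5170 and 5488 to 1408, 1364 and 1519.6, a log2 change of -1.91. NUPR1, a chromatin protein of stressed cells, was at the floor on all combination arrays after 131, 179 and 125 with DMSO, a fall of at least 4.47-fold.

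Most measured genes of amino acid supply fell as well. Of 11 serine and one-carbon enzymes 8 fell and 1 rose (median -1.25), and of 11 amino acid transporters 8 fell and none rose (median -0.60). CTH, which makes cysteine, fell from 1717, 1502 and 1520.4 to 272, 321 and 254, or 5.61-fold. PSAT1 and PHGDH, which make serine, fell 3.52-fold and 2.80-fold. SLC7A5, the leucine transporter of the LAT1 complex, fell from 7504, 6915 and 7789 to 1716, 1660.2 and 2441. SLC7A11, the cystine carrier and also a known ATF4 target, had a log2 change of -0.54 and did not pass (adjusted p = 0.0724).

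The aminoacyl-tRNA synthetases, which load amino acids onto tRNA, went both ways. Of 17 measured, 5 were higher and 6 lower. AARS1 (alanine) fell from 7708, 7109 and 7961 to 3146, 3451 and 3578, and CARS1, GARS1, YARS1, WARS1 and TARS1 fell as well. RARS1 (arginine) rose from 1834, 1631 and 1473 to 4618, 5106 and 4478, a log2 change of 1.53 ± 0.10 (SE) (adjusted p = 4.21e-06). FARSA, a subunit of the phenylalanine enzyme, rose 1.71-fold, and VARS1, HARS1 and FARSB rose as well. Those that fell include enzymes known as ATF4 targets. The lines also differed in both directions, with 5 of the 17 shifted up and 6 shifted down in MV4-11 relative to MOLM-14, where 8.25% and 7.18% of all genes were.

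The CHAC1 and ASNS promoters are shown because both hold the letters TGATGNAA of the C/EBP-ATF response element, which ATF4 binds, in capitals on either strand. CHAC1 is at chr15:40953221-40953520 (plus strand) and ASNS at chr7:97872359-97872658 (minus strand), each with 1 match.
CHAC1: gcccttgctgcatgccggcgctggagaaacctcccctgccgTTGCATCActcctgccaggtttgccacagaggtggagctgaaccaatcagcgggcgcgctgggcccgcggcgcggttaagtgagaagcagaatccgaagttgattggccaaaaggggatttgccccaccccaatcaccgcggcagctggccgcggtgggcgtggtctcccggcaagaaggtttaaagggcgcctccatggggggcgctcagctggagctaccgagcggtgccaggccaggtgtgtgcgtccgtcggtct
ASNS: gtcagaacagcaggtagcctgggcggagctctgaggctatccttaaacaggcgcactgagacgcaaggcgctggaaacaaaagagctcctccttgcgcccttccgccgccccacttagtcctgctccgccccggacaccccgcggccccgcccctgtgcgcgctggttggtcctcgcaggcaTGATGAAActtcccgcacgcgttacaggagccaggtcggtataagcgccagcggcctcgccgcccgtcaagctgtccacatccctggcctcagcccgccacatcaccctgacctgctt
Of the 37 measured genes of the ATF4, serine and transporter lists, 31 had a promoter entry. Of these, 10 genes (32.3%) held the letters in any entry, beside 3.62% of all single entries. The letters of the metal response element were found for 54.8% of the same 31 genes, beside 29.6% of all entries. These windows thus hold more than one of the motifs searched.

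The median of the ATF4 list was -1.36 with ABT-869, -1.12 with SAHA and -1.56 with both. Against ABT-869 alone 8 of the 15 were lower with the combination and 1 higher, where 6% and 7.93% of all genes were. Against SAHA alone 5 of the 15 were lower, where 3.59% of all genes were. CHAC1 had a log2 difference of -3.23 from ABT-869 and of -2.31 from SAHA on the floored scale, with 2 of its 3 combination arrays at the floor. It is among the genes ranked further below by such differences, so its distance from each drug is no separate result. The ASNS difference between the combination and SAHA alone was -0.0042, which did not pass. CEBPB, a leucine zipper factor of myeloid cells and of stress, fell from 4402, 4721 and 4670.3 to 2024, 2005 and 1852, a log2 change of -1.23, where the change was -1.61 with ABT-869 alone and -1.48 with SAHA alone. The combination stood above ABT-869 alone by 0.38 (adjusted p = 0.00336) and differed from SAHA alone by 0.25 (adjusted p = 0.0565). In MOLM-14 the median of the list was -0.13. By the test of the difference 13 of the 15 genes had a lower change in MV4-11, against 7.18% of all genes.

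The genes that run mitosis fell almost as a whole. Mitotic kinases, cyclins and anaphase regulators had 21 of 23 lower, kinetochore and spindle genes 22 of 26, and mitotic kinesins 13 of 13, with none higher and medians of -1.30, -1.18 and -1.25. HMMR, which anchors spindle microtubules, had signals of 4983, 6213 and 6087 with DMSO and 1084, 959 and 1127 with the combination. NEK2, a kinase that splits centrosomes, went from 2808, 2789.8 and 2658 to 769, 926 and 867. PLK1, the kinase of mitotic entry and exit, went from 1594, 1867 and 1585 to 479, 584 and 531. The groups of all 3 genes were separate, with log2 changes of -2.44, -1.69 and -1.66. KIF2C, which depolymerises microtubules at kinetochores, fell 3.69-fold, CCNB1 (cyclin B1) 2.60-fold and CENPE, the kinetochore motor, 3.13-fold. Condensin and cohesin genes, which fold and hold the chromosomes, had 10 of 17 lower and a median of -0.66.

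These falls went past those of the single drugs. The medians with ABT-869 were -0.11, -0.020 and -0.076 for the kinase, kinetochore and kinesin lists, and -0.40, -0.50 and -0.44 with SAHA. Against ABT-869 alone 21 of 23, 23 of 26 and 13 of 13 were lower with the combination, where 6% of all genes were. Against SAHA alone 21 of 23, 16 of 26 and 10 of 13 were, where 3.59% of all genes were. CCNB1 shows the pattern, with a change of 0.0029 from DMSO with ABT-869 (adjusted p = 1), -0.39 with SAHA and -1.38 with both. KIF11, the motor that separates the poles, was higher with ABT-869 (0.49, adjusted p = 0.00535) and lower with both (-0.78, adjusted p = 5.92e-05). In MOLM-14 the median of the kinase list was -0.48. By the test of the difference 18 of its 23 genes had a lower change in MV4-11, against 7.18% of all genes.

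The HMMR promoter is shown because it holds the letters TTTGAA of the cell cycle homology region, where MYB-MuvB complexes are known to bind, in capitals on either strand. It lies at chr5:163460382-163460681 on the plus strand and has 2 matches.
HMMR: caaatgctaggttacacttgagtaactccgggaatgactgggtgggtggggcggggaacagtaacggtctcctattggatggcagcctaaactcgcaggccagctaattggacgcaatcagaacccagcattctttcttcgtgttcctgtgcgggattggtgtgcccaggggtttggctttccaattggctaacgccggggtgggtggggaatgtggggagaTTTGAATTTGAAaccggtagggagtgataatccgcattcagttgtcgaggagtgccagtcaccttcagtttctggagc
Of 61 measured genes of the 3 mitotic lists, 52 had a promoter entry. Of these, 37 genes (71.2%) held the letters in any entry, beside 15.2% of 35116 single entries. CCAAT, the box of the factor NF-Y, was found for 76.9% of the 52 genes and in 34.6% of all entries.

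Genes of the steps before mitosis moved less. Of 45 origin licensing and replication fork genes 17 were lower and 3 higher, with a median of -0.27. With arrays centred on their medians 9 were lower, and with only the 6 arrays in the fit 11 were. ORC1, the largest subunit of the origin recognition complex, fell furthest (3.12-fold), followed by PRIM1, CDT1 and CDC45. CDC6, which loads the helicase, had signals of 783, 763 and 708 with DMSO and 614, 639 and 554 with both drugs and a log2 change of -0.32 (adjusted p = 0.12). MCM10 had a log2 change of -0.10 (adjusted p = 0.578). TYMS and RRM2, enzymes of DNA precursor supply, fell 1.74-fold and 1.51-fold. Among 17 G1 cyclins and their partners 5 were higher and 3 lower (0 lower with centred arrays), and CCNE1 (cyclin E1) rose from 168, 241 and 257 to 380.2, 385 and 363 (adjusted p = 0.0139). With only the 6 arrays in the fit 3 of the 17 were higher and 1 lower, and the call of CCNE1 was lost.

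In MOLM-14 the replication list had a median of -1.10, and 30 of its 45 genes had a higher change in MV4-11 by the test of the difference. So did 10 of the 17 G1 genes, and 8.25% of all genes. CCNE1 had a log2 change of -1.49 in MOLM-14, a difference of 2.27 ± 0.28 (SE) (adjusted p = 1.73e-05). The difference was 2.10 for MCM10 and 1.94 for CDC6. The mitotic lists were thus shifted down in MV4-11 relative to MOLM-14 and the replication list was shifted up.

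The CDK inhibitors, which hold cyclin-dependent kinases in check, were measured with 7 genes, of which 4 were lower and none passed as higher. CDKN1C (p57) went from 359.6, 247 and 205 to 87.3, 103 and 83.5, with separate groups and a fall of 2.90-fold. CDKN1A (p21), known for its rise under histone deacetylase inhibitors, had signals of 5525, 5472 and 5464 with DMSO and 4742, 5021 and 5601 with both drugs, which overlap (log2 change -0.10, adjusted p = 0.573). It fell with ABT-869 alone (-0.50, adjusted p = 0.00959) and rose with SAHA alone (0.40, adjusted p = 0.0185).

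Among the 57 lists, that of the genes for making ribosomes had the highest share of rises. Of 22 ribosome biogenesis and RNA polymerase I genes 15 rose and none fell, with a median log2 change of 0.58. POLR1A, the largest subunit of RNA polymerase I, had signals of 554, 540.1 and 574 with DMSO and 1211, 1184 and 1413 with the combination. NOP16, a nucleolar protein of the large subunit, went from 2364, 3297 and 2534 to 4950.2, 4860.1 and 6029.5. POLR1C, shared by polymerases I and III, went from 955, 1142 and 1194 to 2034, 1950.1 and 2303. The groups were apart in all 3, with log2 changes of 1.19 ± 0.14 (SE), 0.96 ± 0.12 (SE) and 0.94 ± 0.098 (SE). NCL (nucleolin), which helps to build both subunits, had a change of 0.18 and did not pass (adjusted p = 0.184).

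The median of this list was 0.30 with ABT-869 and 0.032 with SAHA. With the combination 9 of the 22 stood above ABT-869 alone, where 7.93% of all genes did, and 10 above SAHA alone, where 3.11% of all genes did. In MOLM-14 the median was -0.22, and 18 of 22 had a higher change in MV4-11, against 8.25% of all genes. POLR1A had a log2 change of -0.40 there, a difference of 1.59 ± 0.23 (SE) (adjusted p = 8.65e-05).

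Chaperones fold new and damaged proteins. Of 12 heat shock chaperones 4 rose (HSPE1, HSPH1, DNAJA1 and HSP90AA1) and 2 fell, of which 1 fell without DMSO replicate 1 or combination replicate 1 and none with centred arrays. HSPE1, the mitochondrial co-chaperonin, rose 1.82-fold and had a change of -0.52 in MOLM-14, a difference of 1.38 (adjusted p = 2.33e-06). DNAJB1, a heat-inducible partner of HSP70, had a change of 0.14 and did not pass (adjusted p = 0.608). In the endoplasmic reticulum 11 of 19 unfolded protein response genes fell and 2 rose, and 7 fell with centred arrays and 6 with the median over the probe sets of a gene. XBP1, a transcription factor of that response, fell from 10059, 10660 and 10539 to 5459.8, 4714 and 5701. CALR, a calcium-binding chaperone, rose 1.73-fold.

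Most measured genes of sterol synthesis fell. Of 16 cholesterol synthesis genes 11 were lower and none higher (median -0.86), and of 9 other SREBP targets 7 were lower and none higher (median -1.03). Taking the median over all probe sets of a gene, 4 of the 9 were lower. The 2 that did not pass were ACACA, which starts fatty acid synthesis, with a log2 change of -0.49 (adjusted p = 0.0558), and ELOVL6, which lengthens fatty acids, with 0.15 (adjusted p = 0.76). MSMO1, a sterol demethylase of the late pathway, fell 4.33-fold. INSIG1, which holds SREBP in the endoplasmic reticulum and is itself a target, had signals of 12347, 11878 and 10869.7 with DMSO and 4405, 4619.6 and 4393 with the combination. SCD, which puts the double bond into fatty acids, went from 33742, 29081 and 30072 to 13041, 15970.4 and 13813. SREBF1, the lipogenic SREBP itself, went from 2903, 2896 and 2746 to 1219, 1389 and 1607. All 3 had separate groups, with falls of 2.61, 2.17 and 2.04-fold. Neither drug alone changed SCD past the test (-0.29, adjusted p = 0.13 with ABT-869, and -0.17, adjusted p = 0.422 with SAHA). The combination was below ABT-869 alone for 12 of the 16 cholesterol genes and below SAHA alone for 11. Of all genes 6% and 3.59% were.

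The MSMO1 promoter is shown as that of the gene with the largest fall in the pathway by the brightest probe set of each gene, with every CCAAT in capitals on either strand. It lies at chr4:165327419-165327718 on the plus strand and has 4 matches.
MSMO1: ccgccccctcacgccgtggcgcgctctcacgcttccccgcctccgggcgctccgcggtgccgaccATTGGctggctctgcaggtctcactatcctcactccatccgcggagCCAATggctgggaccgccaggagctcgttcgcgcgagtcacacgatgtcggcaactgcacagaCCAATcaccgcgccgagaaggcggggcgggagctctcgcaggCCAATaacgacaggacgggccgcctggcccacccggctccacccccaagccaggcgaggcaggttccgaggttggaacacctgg
NF-Y is a known partner of SREBP. CCAAT was found for 19 of 22 sterol and SREBP genes with a promoter entry (86.4%), beside 34.6% of all single entries. The sterol element letters TCACNCCAC were found for 1 of the 22 genes, SREBF2, beside 1.13% of all entries.

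Transcripts for glucose use changed in a few genes. Of 21 glycolysis genes 6 fell and 2 rose, and 10 fell when only probe sets above the median signal were tested. ALDOC, the aldolase isoform known from brain, had signals of 12119, 12469 and 11899.6 with DMSO and 2410, 2579 and 3402 with the combination. ENO2, the enolase isoform of neurons, went from 2357, 2013 and 2095 to 553, 420.1 and 586. SLC2A3 (GLUT3), a high-affinity glucose transporter, went from 13299, 12767 and 12247 to 3737, 4189.7 and 4097. The groups of these genes did not overlap, and with PFKFB4 (2.75-fold) they were the 4 that fell at least 2-fold. HK1, the constitutive hexokinase, rose 1.79-fold. The log2 change of ALDOC was -0.69 with ABT-869 (adjusted p = 0.0376), -0.42 with SAHA (adjusted p = 0.188) and -2.14 with both.

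Among 18 targets of p53, the tumor suppressor that answers DNA damage, 8 rose and 3 fell. TP53INP1, which promotes cell death and autophagy, rose from 213, 203 and 223 to 612, 740.1 and 754. AEN, a nuclease of apoptosis, rose from 205, 97.3 and 155 to 352, 465 and 527. ZMAT3, an RNA-binding protein, rose from 874, 728 and 696 to 1880.1, 1831 and 1889. The groups were separate in all 3, and the folds were 3.29, 3.04 and 2.45. The other direction held for PMAIP1 (NOXA), a BH3-only killer protein that ATF4 also drives, which fell from 2875, 3123 and 2676 to 774, 914 and 865 (3.40-fold, adjusted p = 1.82e-06). GADD45A and DDB2 fell as well. MDM2, the ligase that degrades p53, rose 1.30-fold with an adjusted p of 0.0439.

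In the BCL2 family, which sets the threshold of mitochondrial cell death, 3 of 10 pro-apoptotic members rose and 2 fell, or 1 without DMSO replicate 2, DMSO replicate 3 or combination replicate 2. Of all genes 11.4% rose and 9.24% fell. BAX, which opens the outer membrane, rose from 467, 419 and 491 to 1004, 816 and 809. BCL2L11 (BIM), a killer protein held down by kinase signalling, rose from 1722, 1889 and 1972 to 3342, 3261 and 3604. Of 5 anti-apoptotic members 1 fell and none rose, and 2 fell without ABT-869 replicate 2, with a floor of 64, with quantile normalization, with array weights, with bright probe sets only or with all 24 arrays in the fit. The 1 was BCL2A1, with 418, 511 and 452 on the DMSO arrays and 231, 243 and 208 on the combination arrays (2.03-fold, adjusted p = 0.000848). MCL1 had a log2 change of -0.10 (adjusted p = 0.471) and BCL2 of -0.17 (adjusted p = 0.0549). BCL2A1 fell with ABT-869 alone (-1.27, adjusted p = 0.00101) and changed by 0.54 with SAHA alone (adjusted p = 0.0607). In MOLM-14 it changed by 0.94 with the combination, a difference between the lines of -1.96 ± 0.23 (SE) (adjusted p = 1.12e-05).

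Lysosomal genes, many of them targets of the TFEB factors, had 10 of 30 higher and 2 lower (1 lower without DMSO replicate 3 or combination replicate 1). CTSA, a protective peptidase, rose from 1078, 1007 and 727 to 1986, 2249 and 2436. ATP6V0D1, a subunit of the proton pump, rose from 1396, 1429 and 1590 to 3373, 3413 and 3596. LAMP1, the main membrane glycoprotein, rose from 5919.6, 6064 and 5625 to 11188, 11852 and 12360. These genes rose 2.40, 2.35 and 2.01-fold without overlap. CTSH, a cathepsin, fell 2.35-fold. Against ABT-869 alone 10 of the 30 were higher with the combination, and against SAHA alone 2 were. Of all genes 7.93% and 3.11% were. Of 19 autophagy genes 8 were higher and 3 lower, but 3 were higher without DMSO replicate 1, 4 without combination replicate 2, and 5 without DMSO replicate 2, combination replicate 1 or combination replicate 3.

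**Figure D3:**
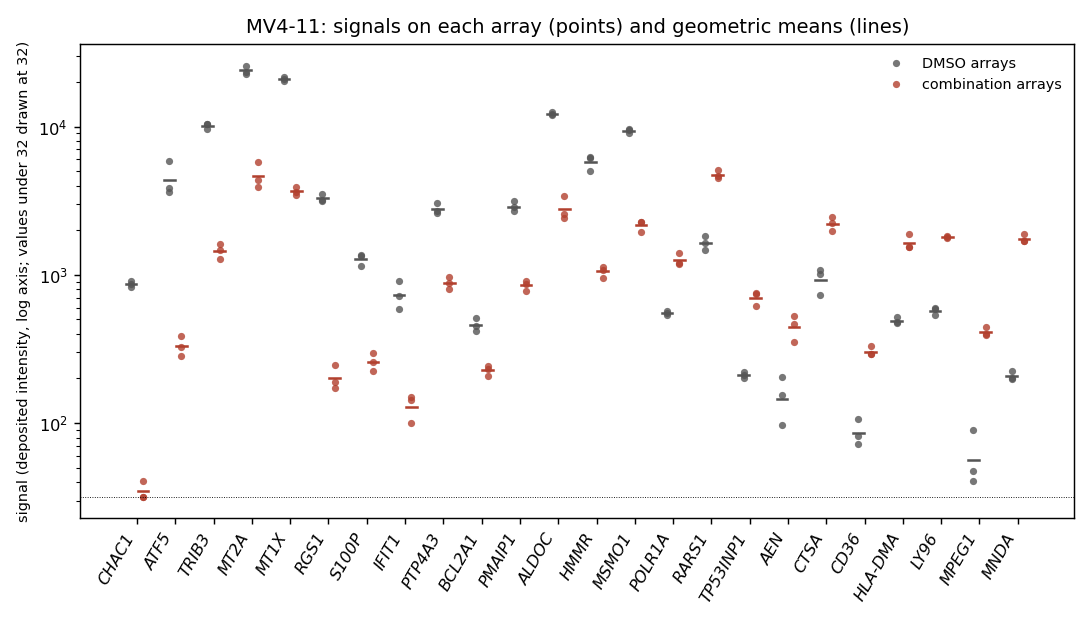
Signals of 24 genes on each of the 3 DMSO and 3 combination arrays of MV4-11, on a log axis with signals under 32 drawn at 32 and lines at the geometric means. The groups are separate in each panel, with falls of 25.0-fold for CHAC1, 16.4-fold for RGS1 and 13.2-fold for ATF5 and rises of 8.44-fold for MNDA and 7.31-fold for MPEG1.

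FLT3 itself, the main target of ABT-869, had signals of 15166, 14953 and 14875 with DMSO and 12655, 13226 and 12123 with the combination. The groups did not overlap, but the log2 change was small (-0.24 ± 0.071 (SE), adjusted p = 0.0423) and did not pass the test in 12 of the alternative settings. Among the other receptor kinases that ABT-869 can block, RET rose 1.49-fold and FLT1 (VEGF receptor 1) fell from 507, 402 and 372 to 211, 96.4 and 94.8. Of 11 histone deacetylases, the targets of SAHA, 2 were higher and 3 lower, where 11.4% and 9.24% of all genes were. HDAC4 rose most (log2 change 0.40), a call lost with only the 6 arrays compared or without DMSO replicate 2 or 3. HDAC1 rose 1.30-fold, and HDAC9 fell from 1309, 1242 and 1185 to 578, 641 and 586. HDAC9 fell with SAHA alone (-1.15) and changed by -0.16 with ABT-869 alone (adjusted p = 0.566).

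Of 18 STAT5 targets 5 fell and none rose, and 8 fell when only probe sets above the median signal were tested. CISH, a feedback inhibitor of cytokine receptors, fell from 5383, 5376 and 5626 to 1189, 1247 and 1559. SOCS2, another such inhibitor, fell from 15756, 15695 and 15895 to 8626, 9572 and 9981. PIM1, a survival kinase, fell from 2747, 2767 and 2919.9 to 893, 955 and 1174. PIM1 was the member that stood above ABT-869 alone: its change was -2.37 with ABT-869 and -1.49 with both, a difference of 0.88 (adjusted p = 0.000631). With SAHA alone the change was 0.39 (adjusted p = 0.067). In MOLM-14 PIM1 changed by 0.70 with the combination, and the lines differed by -2.19 ± 0.18 (SE) (adjusted p = 2.72e-07).

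Of 23 feedback and immediate early genes of the ERK cascade 4 were lower and 3 higher (1 higher without DMSO replicate 1). Of all genes 9.24% were lower and 11.4% higher, so these counts lie near the general shares. DUSP6, a phosphatase of ERK and a common readout of it, had signals of 2707, 2773 and 2674 with DMSO and 2978, 2672 and 2726 with both drugs, which overlap (adjusted p = 0.926). SPRY2 fell 1.29-fold, and JUN, an AP-1 factor, rose 1.80-fold. Larger changes were seen in this list, with 2 members falling and 1 rising at least 2-fold and log2 changes from -1.63 to 1.165. DUSP4 had the change of 1.165, and EGR3 had one of -1.252. Both calls were lost with only the 6 arrays compared and without any 1 of DMSO replicates 1 and 3 and combination replicates 2 and 3. Of 17 FOXO targets, genes that AKT keeps low, 5 rose and 7 fell, and with centred arrays 4 fell. TXNIP, a sensor of glucose and a FOXO target, fell from 24597, 24415 and 22144 to 13328, 13939.8 and 14067 (1.72-fold), while its change in MOLM-14 was 0.65, a difference of -1.43 (adjusted p = 8.93e-08).

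Other regulators of signalling changed more. RGS1, which shortens G protein signals of chemokine receptors, fell from 3495, 3137 and 3218 to 191, 171 and 245, a log2 change of -4.04 ± 0.39 (SE) (adjusted p = 4.22e-05). Of the 9 RGS genes measured 3 fell and 1 rose, where 9.24% and 11.4% of all genes did. PTP4A3 (PRL-3), a phosphatase tied to cell movement, fell from 3057, 2622 and 2682 to 804, 887 and 964 (3.15-fold). Its log2 change was -1.06 with ABT-869, -0.53 with SAHA and -1.66 with both. The combination minus ABT-869 was -0.59 (adjusted p = 0.00571), and the combination minus SAHA was -1.12 (adjusted p = 0.000277). Of its relatives, PTP4A2 had a change of -0.30 (adjusted p = 0.0161), and PTP4A1 had a change of -0.39 (adjusted p = 0.103). The PTP4A2 call was lost with centred arrays, with a prior without trend, and without DMSO replicate 2 or 3 or combination replicate 1 or 2. RASD1, a small GTPase induced by steroids, fell from 926, 843 and 820 to 59.8, 95 and 92.5, or 10.7-fold. With ABT-869 alone its mean signal was 2065 ± 204 (SD, n = 3) and with SAHA alone 123 ± 82.5 (SD, n = 3).

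Chromatin genes changed in part. Among DNA methylation and Polycomb genes 6 of 15 fell and 2 rose, and 3 fell with centred arrays, without DMSO replicate 3 or without combination replicate 2. The count of rises was 1 with centred arrays and without any 1 of the DMSO arrays, combination replicate 1 or combination replicate 3. DNMT3B, a de novo DNA methyltransferase, fell from 1246, 1418 and 1576 to 633, 555 and 601 (2.36-fold). APOBEC3B, a cytidine deaminase that can edit DNA, fell from 1486, 1713 and 1691 to 467, 412 and 551, and 3 of 5 measured members of its family fell. Neuronal genes, which deacetylases are known to keep silent in other cells, showed no rise that passed the test. Of 20 measured, 3 fell (1 rose without DMSO replicate 2 or combination replicate 1), where 9.24% of all genes fell and 11.4% rose. KLF4, a growth-arrest factor of monocytes, rose from 684, 652 and 678 to 1301, 1364 and 1253 (1.95-fold). Of 11 measured HOXA, MEIS1 and other targets of KMT2A fusions 6 fell and none rose, with a median of -0.24.

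Genes of the myeloid state did not shift as a block. Among monocyte and macrophage genes 25 were measured, of which 5 were higher and 4 lower, but 2 were lower with centred arrays and when any 1 of DMSO replicates 1 and 3, ABT-869 replicate 1, SAHA replicates 2 and 3 or the combination replicates was left out. MNDA, a nuclear protein of maturing myeloid cells, had signals of 223, 199 and 201 with DMSO and 1704, 1873 and 1679 with the combination. MPEG1 (perforin-2), a pore protein of macrophages, rose from 90.1, 47.9 and 40.9 to 392, 397 and 443. CD36, a scavenger receptor, rose from 81.3, 72.7 and 107 to 329, 292 and 290.4. None of the groups overlapped. MNDA had a log2 change of 0.50 with ABT-869 and 3.27 with SAHA, whereas MPEG1 had 2.85 with ABT-869 and 1.63 with SAHA. LY96 (MD-2), the partner of TLR4, rose 3.14-fold with both drugs, with changes of 0.18 with ABT-869 (adjusted p = 0.396) and 1.88 with SAHA.

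Other members of the myeloid lists fell. CD300A, an inhibitory receptor of myeloid cells, fell from 3331, 3502 and 3721 to 1057, 1049 and 1068. MS4A14, of the family of CD20, fell from 971, 854 and 968 to 353, 191 and 279. S100P, a calcium-binding protein, fell from 1141, 1357 and 1345 to 257, 226 and 297 (4.95-fold), and its change in MOLM-14 was 0.21 (difference -2.51 ± 0.25 (SE), adjusted p = 2.05e-06). No pair of groups overlapped in these genes. S100A8, the calprotectin subunit of neutrophils and monocytes, rose from 229, 239 and 315 to 469.7, 653 and 497, but less than with either drug alone. Its change was 2.12 with ABT-869, 2.31 with SAHA and 1.05 with both, with a difference of the combination of -1.08 from ABT-869 (adjusted p = 0.0054) and of -1.26 from SAHA (adjusted p = 0.00478).

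Primary granule proteins, made by early granulocyte and monocyte cells, had 5 of 10 higher and 3 lower. PRTN3 (proteinase 3) rose from 5655, 5363 and 5170.2 to 8424, 10023 and 10765 in MV4-11 and changed by -1.39 in MOLM-14 (difference 2.24 ± 0.20 (SE), adjusted p = 5.76e-07). MPO (myeloperoxidase) fell from 1279, 1409 and 1523 to 613, 723 and 946 and had risen with ABT-869 alone (1.06, adjusted p = 0.00122). Its change in MOLM-14 was -2.87. Thus for both enzymes the lower change was in MOLM-14.

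Antigen presentation genes were followed by class, and the classes were not tested against each other. Of 14 MHC class II genes 3 rose, where 11.4% of all genes did, and none fell (1 fell without combination replicate 3 or ABT-869 replicate 1, and 2 with the median over the probe sets of a gene). HLA-DMA, which loads peptides onto class II molecules, rose from 473, 481 and 521 to 1541, 1538 and 1887 (3.36-fold), and HLA-DMB and HLA-DQB1 rose as well. Of 14 genes of the class I pathway 9 fell and none rose (median -0.45), and with centred arrays 5 fell. HLA-E fell from 15901, 14039 and 17020.1 to 8639, 8505 and 10059.7. B2M, the shared light chain, had a change of -0.29 and did not pass (adjusted p = 0.104). HLA genes are close copies of each other, so their probe sets may share signal.

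Of 33 interferon-induced genes 9 fell and 4 rose, where 9.24% and 11.4% of all genes did. Of the 33, 1 rose without combination replicate 3 or with only the 6 arrays in the fit. The IFIT genes, whose proteins bind viral RNA, led the falls. IFIT1 had signals of 718, 915 and 589.5 with DMSO and 99.7, 149 and 144 with the combination. IFIT2 went from 1099, 1360.4 and 912 to 157, 165 and 170.2, and IFIT3 from 898, 1202 and 668 to 206, 215 and 242. The groups were separate for each, with falls of 5.65, 6.77 and 4.07-fold. IRF7, the factor that amplifies interferon production, fell 3.35-fold. BST2 (tetherin) rose 1.92-fold. IFI6 rose from 115, 78.8 and 15.4 to 182, 223 and 189 (adjusted p = 0.0218), a call that was lost without combination replicate 2 or without combination replicate 3. With ABT-869 alone IFIT2 and IFIT3 changed by -3.23 and -2.74, and the combination differed from that by 0.47 (adjusted p = 0.317) and 0.72 (adjusted p = 0.0631), which did not pass.

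**Figure D4:**
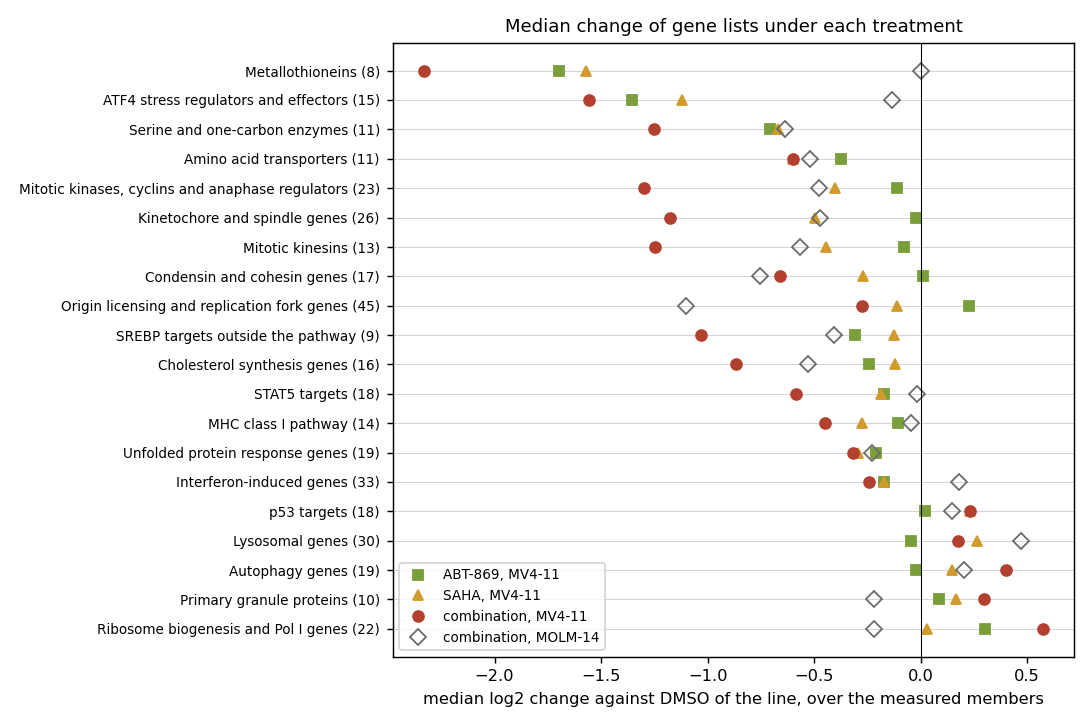
Median log2 change from DMSO of the measured members of 20 gene lists in MV4-11 with ABT-869, with SAHA and with the combination, and in MOLM-14 with the combination. The mitotic lists sit between -1.30 and -1.18 with the combination and between -0.50 and 0 with the single drugs, the metallothioneins and ATF4 genes are already low with each drug, and the ribosome biogenesis genes are at 0.58 in MV4-11 and -0.22 in MOLM-14.

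Set against each drug alone, the combination differed at 790 probe sets from ABT-869 (306 higher and 484 lower) and at 326 from SAHA (67 higher and 259 lower), at least 2-fold and with an adjusted p under 0.05. Against DMSO, ABT-869 alone gave 184 higher and 206 lower, and SAHA alone 400 higher and 266 lower. These comparisons share arrays with each other and are given side by side. With centred arrays the split against ABT-869 turned to 569 higher and 267 lower, so the excess of falls there depends on the scaling, while against SAHA it was 39 higher and 269 lower. The probe sets higher than with SAHA numbered 35 without SAHA replicate 1 and 110 without combination replicate 2. A 2-fold difference from SAHA with no test gave 562 higher and 566 lower.

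Some genes differed in the same direction from DMSO and from each drug alone. The following were ranked by the smallest of their 3 differences, so their distance from each drug is how they were chosen and not a result. SPP1 (osteopontin), a secreted adhesion protein of macrophages, had a mean signal of 2349 ± 127 with DMSO, 2085 ± 378 with ABT-869, 2330 ± 755 with SAHA and 602 ± 116 with both (SD, n = 3). PIK3R3, a regulatory subunit of PI3K, had 200.2 ± 16.2, 260 ± 21.4, 327 ± 23.3 and 777 ± 53.9 in the same order. DEPDC1, a cell cycle protein, had 825 ± 29.4, 629.5 ± 63.9, 468 ± 40.3 and 155 ± 49.6. SPP1 and DEPDC1 were lowest with the combination and PIK3R3 highest. DIAPH3, a formin of the contractile ring, had 2 of 3 combination arrays at the floor (402, 273 and 432 with DMSO and 30.1, 24.4 and 34.5 with both). The change of SPP1 in MOLM-14 was 0.39 (adjusted p = 0.308), and the lines differed by -2.38 ± 0.29 (SE) (adjusted p = 1.67e-05).

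**Figure D5:**
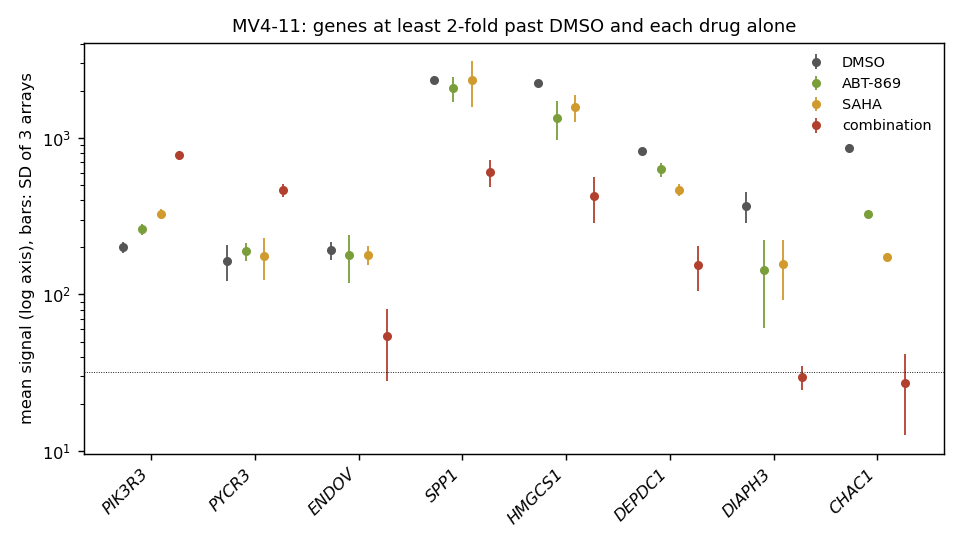
Mean signal and SD of 3 arrays with DMSO, ABT-869, SAHA and the combination in MV4-11 for 8 genes of the largest changes past both drugs with a group mean of at least 128, on a log axis. PIK3R3 and PYCR3 are highest with the combination, and SPP1, HMGCS1, DEPDC1, DIAPH3, ENDOV and CHAC1 are lowest.

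Among probe sets called with the combination, 1 was called in opposite directions with the single drugs (at least 2-fold, adjusted p under 0.05). The mean signals of RASD1 also moved in opposite directions with the single drugs, but not both of these changes were called. The 1 probe set belongs to IL32, a cytokine of activated immune cells, which was named after its values were seen. Its signals were 188, 96 and 135 with DMSO. They averaged 18.7 ± 3.71 with ABT-869, which is below the floor, and 359.6 ± 73.6 with SAHA (SD, n = 3). With both drugs they were 25.2, 37.5 and 51.8, of which 1 was at the floor. The log2 difference of the combination from SAHA was -3.16 (adjusted p = 0.000375). No difference from ABT-869 is given, because the ABT-869 signals lie below the floor.

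The response to the combination differed between MV4-11 and MOLM-14 at 1541 probe sets by at least 2-fold, with the change in MV4-11 higher at 703 and lower at 838. In MOLM-14 itself the combination raised 664 and lowered 413 probe sets. With centred arrays the split of the difference turned to 922 higher and 604 lower, so the direction of its excess depends on the scaling. The interferon-induced IFIT genes fell in MV4-11 and rose in MOLM-14: IFIT1 changed by -2.50 and 1.83 (adjusted p = 0.000502 in MOLM-14), IFIT2 by -2.76 and 1.13 (adjusted p = 0.00416), and IFIT3 by -2.02 and 1.87 (adjusted p = 1.08e-05). ALDH4A1, a mitochondrial enzyme of proline breakdown, rose from 12.3, 73.6 and 58.3 to 295, 320.3 and 353 in MV4-11 and changed by -1.12 in MOLM-14. By list, the metallothioneins, ATF4 genes and mitotic genes had lower changes in MV4-11 than in MOLM-14, and the ribosome biogenesis and replication genes had higher ones.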

How the data were processed

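RNA of 3 cultures per group was hybridized to 1 Affymetrix U133 Plus 2.0 array each. The authors deposited intensity values on a linear scale, with 1 signal for each probe set. Every array was scaled to the same trimmed mean (2% left out at each end), and the software behind this step was not given in the sources used here. Arrays were grouped by their titles. Signals under 32 were raised to 32, log2 was taken and no further normalization was applied, so changes of dim probe sets are understated. The 62 controls were left out and 54613 of 54675 probe sets were tested. Of these, 41091 name 1 gene in the platform annotation, 1801 name several and 11721 are unnamed here. The gene identifiers of 41037 were found in the RefSeq gene table and those of 54 were not.

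The 12 MV4-11 arrays in 4 groups were fitted together in limma 3.58.1 (R 4.3.3), with a trended prior on the 51064 probe sets above the floor on any array. The 3549 others counted as unchanged in the Benjamini-Hochberg adjustment. The interaction of line and treatment was tested over 24 arrays and 8 groups. A probe set was called when it changed 2-fold or more with an adjusted p under 0.05, and a member of a list at an adjusted p under 0.05. With 3 arrays per group an exact permutation test of single values cannot go below 0.1, so none was used. The median SE of a log2 change was 0.176 for bright probe sets, and the number of arrays limits the precision.

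The genes named were drawn in part from a pool set by rule, and not all of the pool is printed. The pool holds the 12 largest rises and falls with separate groups and the 2 largest rises and falls of each list. It also holds the genes the paper lists with FLT3, the 6 largest each way past both drugs and the 4 largest each way in the interaction. Other genes were chosen after their values were seen. The comparison, the lists and this rule were chosen with earlier results of these data known. The alternatives were floors of 1 and 64, quantile normalization, centring on array medians, bright probe sets only, other priors, array weights, a replicate block, other sets of arrays in the fit, each array left out, the median over the probe sets of a gene and a 2-fold rule with no test. The fits were tested on simulated data. Promoter windows were read from a RefSeq table (GRCh38.p14). A gene of a list was counted if any of its entries held the letters, and the share over all promoters counts each entry.

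Replicate numbers of DMSO and combination arrays were checked for pairing. The correlations of their deviations were 0.061, 0.071 and -0.00028. These show no clear pairing by number, and so few arrays cannot exclude it.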

Additional observations from a re-analysis of the deposited data

Results flagged for a closer look

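The change with the combination differed between MV4-11 and MOLM-14 at 1541 probe sets, by limma's test of the interaction over all 24 arrays (2-fold or more, adjusted p under 0.05). The largest differences among probe sets also changed in MV4-11 are given here on the log2 scale, as the change in MV4-11 minus that in MOLM-14. Higher in MV4-11 were ALDH4A1, by 3.76, SLC19A1 (the folate carrier), by 3.47, TMEM201, by 3.43, and DDX51 (an RNA helicase of the ribosome), by 2.75. Lower were IFIT1, at -4.33, IFIT3, at -3.89, IFIT2, at -3.88, and P3H2 (a collagen hydroxylase), at -3.79. For P3H2 the 3 MV4-11 combination arrays lay at the floor of 32. The 3 DMSO signals of DDX51 were 344, 47.3 and 53.4, with replicate 1 far above the others. The calls of SLC19A1, DDX51 and P3H2 against DMSO in MV4-11 were each lost in at least 1 fit that left out an array.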

How the results depend on the processing

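With a 2-fold difference and no test, the counts were 3059 against DMSO, 1735 against ABT-869, 1128 against SAHA and 3935 between the lines, where the tests gave 1816, 790, 326 and 1541. With only the 6 arrays compared, the count against ABT-869 was 525, and the cause was not tested. Leaving out each array in turn gave 1589 to 1984 against DMSO, 728 to 843 against ABT-869, 248 to 366 against SAHA, 1389 to 1671 between the lines and 369 to 419 list members, against 420 in the full fit. With the replicate number as a block, 1679 probe sets changed against DMSO and 397 list members, and the counts were 713 against ABT-869, 261 against SAHA and 1545 between the lines. The numbers showed no clear pairing, which so few arrays cannot exclude. Arrays 1 and 2 of DMSO correlated best with the combination array of their own number and array 3 with number 2. Scaling moved directions. Centred arrays gave 1084 higher and 772 lower against DMSO, 569 and 267 against ABT-869, 39 and 269 against SAHA, 922 and 604 between the lines, and 346 list members. Quantile normalization gave 416 higher and 417 lower against ABT-869. Of the values of the 217 probe sets picked by the naming rule under the alternatives, 5010 kept their direction and side of the threshold, 189 lost the call and 0 reversed. Signals at the floor carry no order, which limits the folds of CHAC1, DIAPH3, NUPR1, MT1M and TPSAB1. Of genes with several probe sets, 42% of those that rose and 56.4% of those that fell had at least 2 called the same way.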
